A study of Drosophila melanogaster with 8 samples.

Results

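Small nucleolar RNAs (snoRNAs) were quantified in heads of Drosophila melanogaster as 134 genes of the 258 snoRNA and scaRNA genes in a table of 17490 genes. The members were chosen by FlyBase symbol, which had to start with snoRNA: or scaRNA:, and by a sum of 80 or more counts over the 8 libraries. The sum of counts is therefore a criterion of choice and not a result. All 134 members carry the snoRNA biotype in the Ensembl annotation.

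snoRNAs are short nucleolar RNAs that pair with a target RNA and place a modifying enzyme on it. H/ACA snoRNAs guide pseudouridylation with the enzyme Nop60B (dyskerin), and C/D snoRNAs guide 2'-O-methylation with Fibrillarin. Their main target is ribosomal RNA, whereas scaRNAs reside in Cajal bodies and guide the same reactions on spliceosomal snRNAs. In flies most of them are cut out of the introns of host genes, many of which encode ribosomal proteins. FlyBase names guides of pseudouridylation Psi and guides of methylation Me, followed by the target RNA and position. Members with neither prefix were kept as a class of other snoRNAs.

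The study set flies null for Obp56h, which encodes an odorant-binding protein, against the CSB control line. The 4 groups were Obp56h-/- males, Obp56h-/- females, CSB males and CSB females, with 2 libraries each and each library made from a pool of heads. The flies were young adults a few days old, and all of them shared the CSB genetic background. In the null line the gene had been replaced with a DsRed cassette under the 3XP3 eye promoter, so that each genotype was a single line and the deletion and the cassette cannot be told apart. RNA was total RNA depleted of ribosomal RNA. Obp56h itself had 1, 0, 0 and 0 counts in the null libraries, against 54 to 110 counts in the CSB libraries.

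Total counts ran between 10127941 in CSB female replicate 1 and 25918919 in Obp56h-/- female replicate 1. The next lowest total was 17174109, in CSB male replicate 1. The head markers ninaE, elav, repo, nAChRalpha1 and trp together stood at 22218 to 25186 CPM (counts scaled to the depth of the library with TMM factors) in every library. The CSB male replicate 1 library stood apart: 8 members had 0 counts there and none did in any other library. Its summed yolk protein and Lsp2 level was 1520 CPM, against 81.6 to 203 CPM in the other male libraries and 45187 to 52947 CPM in females. Members of replicate 1 differed from those of replicate 2 by a median log2 ratio of 0.03 in Obp56h-/- males and 0.16 in Obp56h-/- females, against -0.66 in CSB males and 0.39 in CSB females. Replicates were separate pools of flies from 1 line, so p-values measure the spread between such pools and not between independently made lines.

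Which of the guide classes reached the sum of 80 differed. Of 112 Psi guides, 89 were members (79.5%), against 17 of 82 Me guides (20.7%) and 28 of 64 other snoRNAs (43.8%). The classes also differed in gene length, with a median of 140 bp for Psi guides, 80 bp for Me guides and 118 bp for the others. Of 98 genes under 100 bp 15 were members, and of 143 genes of 130 bp or more 112 were. No Psi guide was under 100 bp, and only 3 Me guides reached 130 bp. From 100 to under 130 bp, 7 of 12 Me guides were members and 0 of 4 Psi guides, all copies of snoRNA:Psi18S-640. Outside that range class and length can hardly be told apart. Of the 258 genes, 26 overlapped an exon of another gene and had a median sum of 0 counts, against 170 for the rest. None of these 26 was a member.

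**Figure D1:**
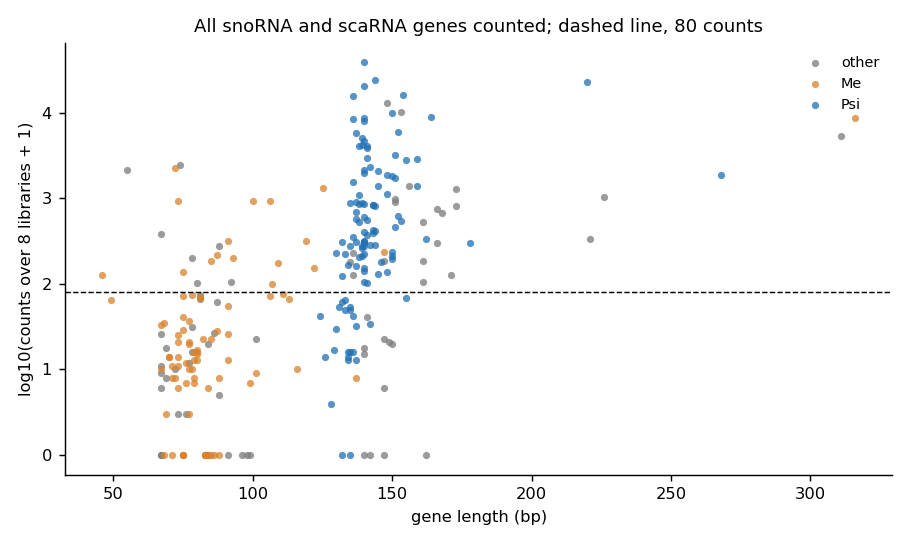
Gene length in bp (x axis) against log10 of the counts summed over 8 libraries plus 1 (y axis) for the 258 snoRNA and scaRNA genes, coloured by guide class, with the sum of 80 as a dashed line. Of the Psi guides 89 of 112 lie on or above the line, and of the Me guides 17 of 82 do.

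Members just inside the sum were snoRNA:Me28S-A2589c with 99 counts, snoRNA:Psi28S-1232 with 101 and snoRNA:U49:66Da with 102. Just outside it were scaRNA:MeU5-U42 with 75, snoRNA:U14:30Ea with 74 and snoRNA:Me28S-G764 with 73. Of the 134 members 126 had a count above 0 in every library, and none was at 0 in both libraries of a group. Members took 0.0994 to 0.167% of counts in male libraries and 0.22 to 0.328% in female libraries.

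A few snoRNAs made up most of the signal. The 10 highest members held 53.4% of the summed CPM and the highest alone held 11.6%. Per kb of gene length the top member was snoRNA:Psi18S-1820, a guide of 18S rRNA pseudouridylation that lies within Nop60B, the gene of the pseudouridine synthase itself. Its level averaged 1757 CPM per kb over the 8 libraries. Next came snoRNA:Psi28S-2442b in kra at 1042 CPM per kb, snoRNA:Psi28S-1192a in RpS5a at 923 and snoRNA:Psi18S-1377d in RpS7 at 743. The median over all 134 members was 25.9 CPM per kb, with 31.9 for Psi guides and 19.1 for Me guides. Psi guides held 79.6 to 83.4% of the members' CPM in each library, and Me guides 3.84 to 6.93%.

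snoRNA:Psi28S-2442b shows how far the CSB male replicate 1 library departed for a single guide. It had 90.9 and 125 CPM in Obp56h-/- males, 220 and 164 CPM in Obp56h-/- females, 2.97 and 139 CPM in CSB males and 216 and 242 CPM in CSB females. The value of 2.97 CPM stood alone. snoRNA:Psi18S-531, in contrast, had 22.7 and 22.2 CPM in the same pair of CSB male libraries.

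The members shared few host genes. An annotated host on the same strand held 123 members, in 56 hosts, and 11 members had none. 19 hosts held 2 or more members, 86 in all. RpS5a held 13, dom, a chromatin remodelling ATPase, held 11, kra held 8, and Hrb98DE (an hnRNP protein) and RpS7 held 7 each. 18 hosts were ribosomal protein genes with 47 members. Members of one host come from the same primary transcript and are not independent, but their levels were far apart. The highest exceeded the lowest by a median factor of 6.55 over the 19 hosts, in CPM per kb. The factor was 1.00 in RpS20 and 163 in RpS5a, where snoRNA:Psi28S-1192a stood at 923 CPM per kb and snoRNA:Psi28S-1135b at 5.67. In kra the factor was 153. Among Psi and Me guides, a letter after the position marks copies that guide the same position (54 members in 18 such families), and since the deposited counts rest on unique alignments, the levels of near-identical copies are uncertain.

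snoRNA levels were lower in males than in females. Summed over the 134 members the level was 1364 and 1360 CPM in Obp56h-/- males, 3429 and 2934 CPM in Obp56h-/- females, 938 and 1590 CPM in CSB males and 3062 and 2276 CPM in CSB females. The 4 male libraries lay below the 4 female libraries in both lines. The mean was 1313 ± 273 CPM in males and 2925 ± 481 CPM in females (SD, n = 4 each), a female to male ratio of 2.23. Without the 10 highest members the ratio was 2.10. It was 2.28 for Psi guides, 1.66 for Me guides and 2.16 for the others, and the ratios of the classes were not compared by a test. The Me sum leaned on scaRNA:MeU5-C46, with 8619 of the 17099 counts of the Me members. The log2 fold change of scaRNA:MeU5-C46, male over female, was -0.24. The fly heads are bulk samples, in which fewer cells of a type and less RNA per cell cannot be told apart.

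**Figure D2:**
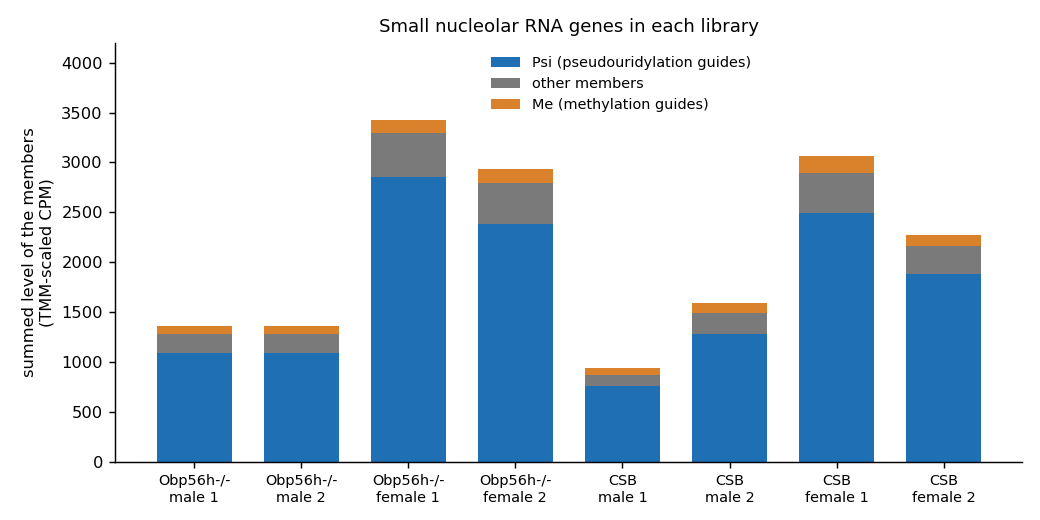
Summed TMM-scaled CPM of the 134 members in each of the 8 libraries (y axis), stacked by guide class, with 2 libraries for each line and sex (x axis). The 4 male libraries sit between 938 and 1590 CPM and the 4 female libraries between 2276 and 3429 CPM.

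Gene by gene, 65 of the 134 members were lower in males than in females, averaged over the lines, and 0 were higher. Calls came from the quasi-likelihood test of edgeR at a Benjamini-Hochberg adjusted p under 0.05, with 13536 genes in the adjustment. Of all genes in the fit 4.69% were called lower in males. At an unadjusted p under 0.05, 93 members were lower (9.9% of all genes) and 0 higher, and DESeq2 and limma voom likewise called 0 higher. The median log2 fold change, male over female, was -1.03 over the members and -0.00 over all genes tested, and 128 of 134 members had a negative value. Male and female libraries did not overlap, with males below, for 65 members (48.5%), against 6.16% of all genes tested. With both CSB replicate 1 libraries left out, 47 members were lower (5.49% of all genes), 44 of them among the 65, and the median was -0.70. Without CSB female replicate 1 alone, 41 were lower.

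The difference was present in each line. In Obp56h-/- flies 38 members were lower in males (2.36% of all genes tested) and 0 higher, with a median log2 fold change of -1.08. In CSB flies 32 were lower (1.92%) and 0 higher, with a median of -1.003. The CSB median was -0.41 without both CSB replicate 1 libraries, -0.69 without CSB female replicate 1 and -1.52 without CSB male replicate 2. At an unadjusted p under 0.05, 78 members were lower in the null flies (7.7% of all genes) and 73 in the CSB flies (6.22%), and 0 were higher in either, also by DESeq2 and limma voom. 21 members were called in both lines, and 120 had a negative value in both. The CSB count depended on single libraries: it was 7 without both CSB replicate 1 libraries (1.35% of all genes), 3 without CSB female replicate 1 and 72 without CSB male replicate 2.

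Psi guides of ribosomal RNA made up 8 of the 10 members with the smallest p-values. Most members are Psi guides in any case, 89 of the 134, with 5 scaRNAs among the 89. snoRNA:Psi18S-531, which lies in the noncoding gene lncRNA:CR42491 on the X chromosome (763083 to 763234, minus strand, release 6), had 16.1 and 17.4 CPM in Obp56h-/- males against 71.2 and 58.7 CPM in Obp56h-/- females. It had 22.7 and 22.2 CPM in CSB males against 63.0 and 37.7 CPM in CSB females. The male and female libraries did not overlap in either line. Males lay wholly below females for 107 of 134 members in Obp56h-/- and 88 in CSB flies, and wholly above for 0 and 2. The log2 fold change, male over female, was -1.56 (SE 0.14, adjusted p = 9.08e-07 in the quasi-likelihood test).

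snoRNA:Psi18S-1820, the member with the highest level, had 127 and 176 CPM in Obp56h-/- males against 404 and 368 CPM in Obp56h-/- females, and 159 and 130 CPM in CSB males against 361 and 242 CPM in CSB females. Its log2 fold change was -1.20 (SE 0.14, adjusted p = 1.02e-05). Its host Nop60B differed by -1.14 (SE 0.11). Guide and enzyme gene were both lower in males, and the difference between their fold changes was not tested.

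snoRNA:Psi18S-1086 and snoRNA:Psi18S-110 lie together in Sf3b3, a gene of the spliceosomal SF3b complex, on 3L. snoRNA:Psi18S-1086 averaged 5.32 ± 1.27 CPM in males and 17.9 ± 4.91 CPM in females (SD, n = 4 each). snoRNA:Psi18S-110 averaged 13.1 ± 2.08 CPM in males and 42.0 ± 13.2 CPM in females (SD, n = 4 each). Their log2 fold changes were -1.72 and -1.67, against -0.52 for Sf3b3 itself. snoRNA:Tudor-SN-a, whose symbol names no target, differed by -1.42 and had the smallest p-value of the members (adjusted p = 6.07e-07 by the quasi-likelihood test). The other members among the 10 smallest p-values were snoRNA:Psi18S-1377d (-1.33), snoRNA:Psi28S-1135f (-1.57), snoRNA:Psi18S-920 (-1.47), snoRNA:Psi28S-1060 (-1.58) and snoRNA:185 (-1.71). Each of these 10 kept its call under all 18 alternatives run for it.

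**Figure D3:**
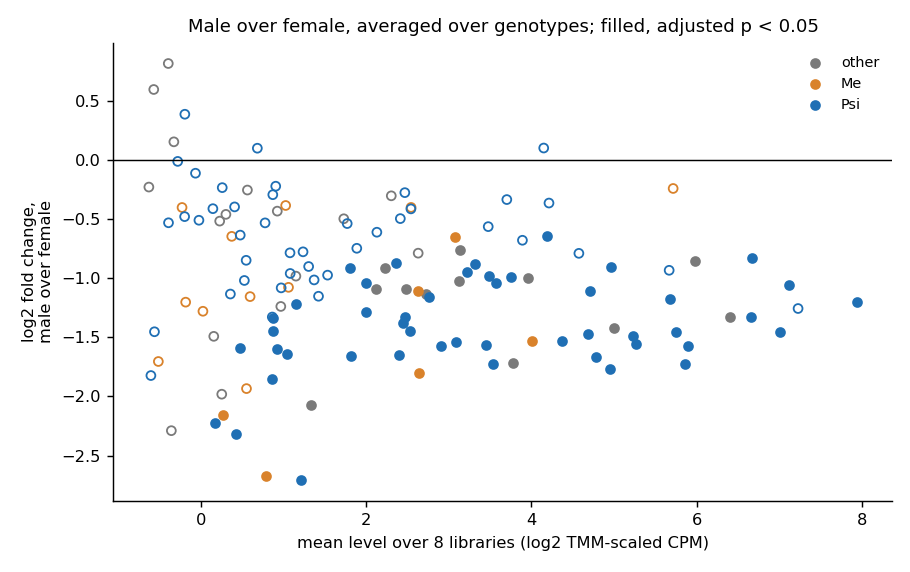
Log2 fold change of male over female, averaged over the lines (y axis), against the mean level as log2 CPM (x axis) for the 134 members, coloured by guide class and filled where the adjusted p is under 0.05. 128 members lie below 0, and the 65 filled ones all do.

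By guide class, 47 of 89 Psi guides, 6 of 17 Me guides and 12 of 28 others were called lower in males. The medians were -1.04, -1.16 and -0.95 in that order. Among the Me guides called were snoRNA:Me18S-C1366 in Uhg5, a noncoding host transcript, at -1.81 (SE 0.28) and snoRNA:Me18S-C1831 in RpL27A at -1.53 (SE 0.26). Calls were more frequent at higher levels, with 50 of the 67 members above the median level called and 15 of the 67 at or below it. All 17 Me guides had a negative value.

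scaRNAs, the guides of spliceosomal snRNA modification, showed a smaller median. Of the 10 scaRNA members 2 were lower in males, scaRNA:MeU2-48 at -0.65 (SE 0.17) and scaRNA:PsiU1-6 at -0.95 (SE 0.25), and the median over the 10 was -0.53. The 6 members with a positive value were snoRNA:lola-c (0.82), snoRNA:gcl-a (0.60), snoRNA:Psi28S-1153 (0.39), snoRNA:lola-d (0.15), snoRNA:Psi18S-1389b (0.10) and scaRNA:PsiU5-44 (0.10), and none of them passed the test. 4 of these 6 values turned negative when a library was left out. By chromosome arm, the medians were -1.45 on X (16 of 23 called), -1.17 on 3L (12 of 21), -1.01 on 3R (16 of 38), -0.91 on 2L (4 of 8) and -0.85 on 2R (17 of 44). Of the 23 members on X, 13 lie in RpS5a (median -1.44, 9 called) and 4 in RpL17. Members of one host are not independent, so the X values rest largely on a single transcript.

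Other short RNAs were set beside the snoRNAs with no test between the groups of genes. Spliceosomal snRNA genes summed to 1519 ± 102 CPM in males and 2244 ± 637 CPM in females (SD, n = 4 each), and their libraries overlapped. Of 28 snRNA genes 11 were called lower in males (4.69% of all genes tested were), with a median of -0.96. Of 54 tRNA genes 0 were called in either direction by the quasi-likelihood test, 1 had an unadjusted p under 0.05, and DESeq2 and limma voom called 0. The median tRNA log2 fold change was 0.02. Ovary markers, which would mark contaminating female tissue, were at 0.581 to 2.75 CPM in males and 0.775 to 5.06 CPM in females for vas and osk summed, and nos was not matched. The 5.06 CPM fell in CSB female replicate 1. Testis markers summed to 0.714 CPM or less in every library. Flight muscle markers (Act88F, fln and TpnC4 summed) separated the sexes, at 11.3 to 14.2 CPM in males and 8.77 to 9.64 CPM in females. Fat body yolk protein genes, which differ by sex in flies, followed the sexes as given above, and the part that the makeup of the head had in the snoRNA difference was not tested.

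Host genes differed in the same direction but by less. Of the 55 hosts tested 20 were lower in males (4.69% of all genes tested were) and 0 higher by the quasi-likelihood test. At an unadjusted p under 0.05, 1 was higher, and DESeq2 and limma voom each called 1 higher. The median over hosts was -0.25. In 50 of 55 hosts the median of the members was more negative than the host. Over the 55 hosts the members' median minus the host value was -0.77 in the median (log2), with no test of this difference. The ribosomal protein hosts were lower in 13 of 17 cases, with a median of -0.58, and the 47 members in ribosomal protein hosts had a median of -1.33, with 29 called. Members in other hosts had a median of -0.91, with 27 of 76 called. Of the 11 members with no annotated host 9 were called, with a median of -1.10.

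RpS5a shows both layers. The host was lower in males by -0.67 (log2), and 9 of its 13 snoRNAs were called, with values between -2.23 and -0.01. Hrb98DE had a host value of 0.01 and did not pass the test, while its 7 members had a median of -1.02 with 3 called. In lola, a transcription factor gene, the host stood at 0.02 and 0 of its 4 members passed, with a median of -0.14. In Hrb98DE, SC35 and pAbp the host value lay between -0.02 and 0.03, and the medians of the members lay between -1.02 and -0.75.

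**Figure D4:**
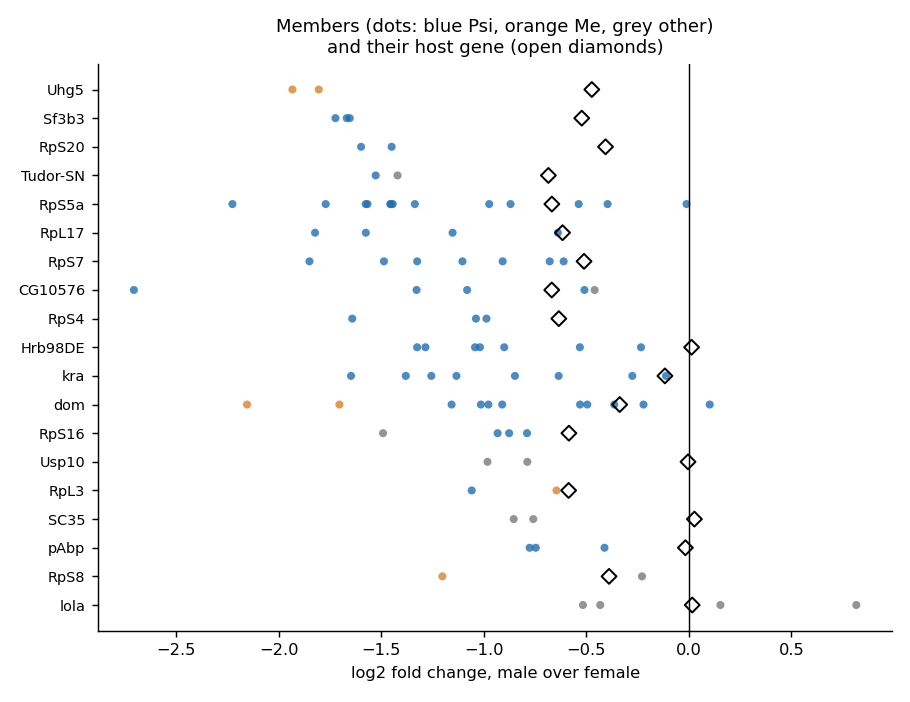
Log2 fold change of male over female (x axis) for the members of each of the 19 hosts with 2 or more members (dots, coloured by class) and for the host gene itself (open diamonds). The dots of most hosts lie to the left of the diamond, and the diamonds of Hrb98DE, SC35, pAbp, Usp10 and lola sit near 0.

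Partners of the snoRNAs were followed as a list of 23 genes tested, 17 of them protein genes and 6 noncoding Uhg host transcripts (hoip was not matched and Uhg7 was not tested). Of these 9 were lower in males (4.69% of all genes tested were) and 0 higher. DESeq2 and limma voom also called 0 higher, as did an unadjusted p under 0.05. The core proteins of both particles were among them. For the C/D particle, nop5 averaged 12.8 ± 1.42 CPM in males and 30.2 ± 7.69 CPM in females, a log2 fold change of -1.20. Nop56 (-1.15) and the methyltransferase gene Fib (-1.08) passed as well. For the H/ACA particle, Nop60B averaged 19.3 ± 1.24 CPM in males and 42.6 ± 4.73 CPM in females (SD, n = 4 each), and NHP2 (-0.82) and Gar1 (-0.81) were also lower, whereas Nop10 stood at -0.65 and did not pass. The chaperone Nopp140 (-0.42), the assembly factor CG10341 (-0.43, Naf1) and the host transcript Uhg5 (-0.47) completed the calls. Of the genes of assembly and processing, pont, rept, coil, Rrp6 and Rat1 did not pass, with values between -0.14 and 0.17, nor did Nufip at -0.57 (adjusted p = 0.115, edgeR).

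The comparison of Obp56h-/- with CSB flies, which asks whether loss of Obp56h changed the snoRNAs, gave few calls. In females 2 members were higher in the null (0.598% of all genes tested) and 0 lower. In males 1 was lower (0.244%) and 0 higher. Averaged over the sexes 2 were higher (0.879%) and 1 was lower (1.05%). DESeq2 and limma voom also called 0 lower in females and 0 higher in males, and the likelihood ratio test called 1 higher in males. At an unadjusted p under 0.05 there were 22 members in females, 6 of them lower (10.7% of all genes tested), 9 in males, 4 of them higher (9.15%), and 12 averaged (18.6%). Counts of 1 and 2 are too few to read against the shares over all genes. The median log2 fold change, null over CSB, was 0.15 in females, 0.08 in males and 0.05 averaged over the sexes. Medians over all genes tested were -0.03, -0.05 and -0.04 in the same order. Scaling by library size alone gave 0.03, -0.01 and -0.06 for the members and -0.14 for all genes in each comparison. With both scalings the members' median lay above that of all genes. The sign of the members' median itself depends on the scaling in males and in the average. It depends on single libraries as well. In females the members' median was -0.03 without CSB female replicate 2 and 0.35 without CSB female replicate 1. In males it was -0.25 without CSB male replicate 1 and 0.54 without CSB male replicate 2, and the average lay at -0.04 and 0.35 without the same libraries. The counts of calls moved with those of all genes in some settings only. With DESeq2 the average kept 3 member calls, with 788 calls over all genes. By limma voom females had 4 member calls, with 131 over all genes. Without CSB male replicate 2 there were 40 member calls in males and 37 averaged over the sexes, with 769 and 1649 calls over all genes, against 68 and 261 with every library kept. The same setting gave 18 member calls in females, with 529 over all genes against 140. Without CSB male replicate 1 there were 20 member calls in females and 14 averaged, with 520 and 647 over all genes.

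A pair of snoRNAs in the same host changed in opposite directions. snoRNA:CG32479-a and snoRNA:CG32479-b lie 759 bp apart on the plus strand of 3L, at 891250 to 891475 and 890270 to 890490, within Usp10 (871899 to 895313), which encodes a ubiquitin-specific protease. snoRNA:CG32479-a had 323 and 237 counts in Obp56h-/- females against 35 and 47 in CSB females, and 210 and 122 counts in Obp56h-/- males against 0 and 57 in CSB males. Every null library was above every CSB library, and the 0 fell in the CSB male replicate 1 library.

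snoRNA:CG32479-b had 40 and 22 counts in Obp56h-/- females against 46 and 79 in CSB females, and 12 and 6 counts in Obp56h-/- males against 44 and 85 in CSB males. Here every null library was below every CSB library, although in raw counts the 40 and the 44 came close. As a ratio of counts, -a over -b, the pair stood at 8.08 and 10.8 in Obp56h-/- females and 17.5 and 20.3 in Obp56h-/- males. In CSB flies the ratio was 0.761 and 0.595 in females and 0 and 0.671 in males. The order of the pair was therefore turned round between the lines in all 8 libraries.

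Averaged over the sexes, snoRNA:CG32479-a was higher in the null by 2.41 on the log2 scale (SE 0.43, adjusted p = 0.00377 by the edgeR quasi-likelihood test), a 5.31-fold difference. This call was lost with DESeq2, where the adjusted p reached 0.243, and with length-scaled counts (GeTMM) in a likelihood ratio test. Without CSB male replicate 2 the fitted value was 6.34, but CSB males then had 0 counts and the value depends on the prior count. snoRNA:CG32479-b was lower in the null, with a log2 fold change of -2.17 (SE 0.34, adjusted p = 0.00111), or 4.51-fold, and passed under all 17 alternatives run. Within males snoRNA:CG32479-b differed by -2.97 (SE 0.51, adjusted p = 0.00725), a call lost without Obp56h-/- male replicate 2 and with each sex fitted on its own. Usp10 itself differed by 0.03 (adjusted p = 0.916) and stood between 153 and 183 CPM in all 8 libraries.

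**Figure D5:**
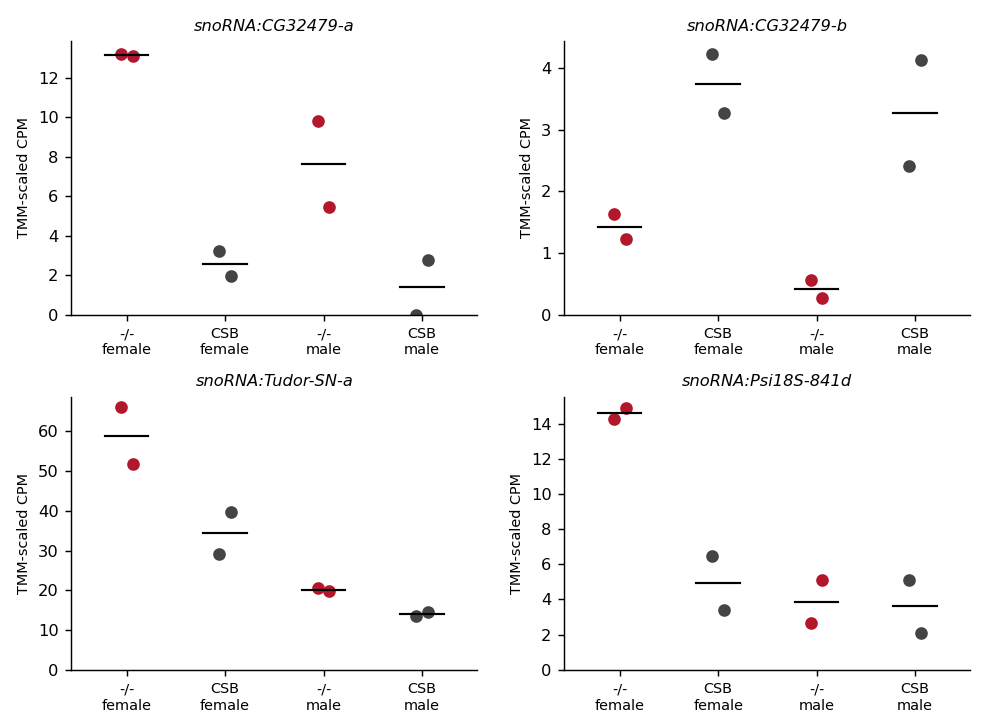
TMM-scaled CPM per library (dots, red for Obp56h-/- and grey for CSB) and group means (lines) of the 4 members called between the lines, for females and then males. snoRNA:CG32479-a lies higher and snoRNA:CG32479-b lower in every null library, with 13.2 and 13.1 CPM in Obp56h-/- females against 3.22 and 1.94 CPM in CSB females for snoRNA:CG32479-a.

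snoRNA:Tudor-SN-a was called in females and in the average. It had 66.1 and 51.7 CPM in Obp56h-/- females against 29.2 and 39.6 CPM in CSB females, and 20.6 and 19.7 CPM in Obp56h-/- males against 13.6 and 14.6 CPM in CSB males. The lines did not overlap within either sex. With 2 libraries per group this is common. In females 40 of 134 members lay wholly higher in the null and 10 wholly lower, and in males 9 and 18. The log2 fold change was 0.64 averaged over the sexes (SE 0.12, adjusted p = 0.00793, edgeR), and the call held under all 18 alternatives run. In females it was 0.77 (SE 0.17, adjusted p = 0.0345), a call lost without Obp56h-/- female replicate 1 (0.59), without CSB female replicate 1 (0.58), without both CSB replicate 1 libraries and with library size alone. It lies in Tudor-SN on 3L (259970 to 260280, minus strand), a gene of a nuclease with a Tudor domain. The host differed by 0.46 in females (adjusted p = 0.233), and its other member, snoRNA:Psi18S-996, by 0.47 (adjusted p = 0.634).

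snoRNA:Psi18S-841d, a guide of 18S rRNA pseudouridylation in dom on 2R (21330906 to 21331043, plus strand), was called in females alone. It had 14.3 and 14.9 CPM in Obp56h-/- females against 6.45 and 3.39 CPM in CSB females, and 2.66 and 5.09 CPM in Obp56h-/- males against 5.11 and 2.09 CPM in CSB males. The lines overlapped in males and did not in females, where 40 of 134 members lay wholly higher in the null and 10 wholly lower. In females the log2 fold change was 1.62 (SE 0.36, adjusted p = 0.0326, edgeR). The call was lost under 5 alternatives, among them without Obp56h-/- female replicate 1, without CSB female replicate 1 (2.11) and without CSB female replicate 2 (1.15). In males it was 0.12 (adjusted p = 0.950). The difference between the sexes was 1.502 (SE 0.52) and did not pass over all genes (adjusted p = 1.00 by the quasi-likelihood test). The other 10 members in dom, copies of the same guide among them, had values between -1.04 and 0.77 in females and none passed, nor did dom itself (-0.11, adjusted p = 0.811).

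Next by p-value, without passing, were snoRNA:291 in Prp39 (0.73 averaged over the sexes, adjusted p = 0.0695) and snoRNA:185 (0.74, adjusted p = 0.0797), which passed under 11 and 9 of the 18 alternatives run for each. scaRNA:PsiU2-38.40.42, a guide of U2 snRNA, stood at -0.61 (adjusted p = 0.111) and snoRNA:Me28S-G2703c in Uhg5 at -1.76 (adjusted p = 0.141, edgeR throughout). By class, the median averaged over the sexes was 0.11 for Psi guides, -0.12 for Me guides and 0.01 for the others.

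Whether the effect of the null allele differed between the sexes was tested as an interaction, and 0 of the 134 members passed (0.0369% of all genes tested did). At an unadjusted p under 0.05 there were 12 members (3.05% of all genes tested), and DESeq2 and limma voom called 0. Of the 23 partner genes 0 passed in any of the 3 genotype comparisons. At an unadjusted p under 0.05 there were 2 in females, 1 in males and 4 averaged, and DESeq2 and limma voom called 0 in each. Of the 55 hosts 0 passed in any of them by the quasi-likelihood test. At an unadjusted p under 0.05 there were 12 hosts in females, 11 in males and 19 averaged. Of these 9, 10 and 16 were lower in the null. Over all genes tested the shares at that threshold were 10.7%, 9.15% and 18.6% in the same order. Other tools called hosts lower in the null averaged over the sexes, 12 with DESeq2 and 7 with limma voom. DESeq2 also called 2 in females and 1 in males. Calls over all genes, in either direction, numbered 788 averaged with DESeq2 and 265 with limma voom. With DESeq2 they numbered 225 in females and 108 in males.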

How the data were processed

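Heads were sequenced as rRNA-depleted total RNA. The authors trimmed reads with AfterQC, aligned them to release 6 with GSNAP and deposited raw counts of unique alignments per gene (Subread) with gene lengths. Reads of 8 libraries entered 1 model of 4 groups of 2 in edgeR 4.0.16 (filterByExpr, TMM, glmQLFit and glmQLFTest, Benjamini-Hochberg over 13536 genes, threshold 0.05). Levels are TMM-scaled CPM, and SE is the log2 fold change over the root of F. Positions, hosts and biotypes came from Ensembl 115 on the same assembly. A host is the smallest gene on the same strand that contains the member. The study used a likelihood ratio test on GeTMM values, kept here as an alternative beside DESeq2 1.42.0, limma 3.58.1 voom, other scalings, filters, left-out libraries and a replicate block. The fit was tested on simulated counts that gave every gene the same spread. That does not show how it treats members whose replicates differ widely. Members and lists, also the marker and partner genes, were chosen with earlier results of these data known. Named members were those called in any contrast, the 10 smallest p-values per main contrast, the 10 highest per kb, host partners and the neighbours of the sum of 80. Analysis used R 4.3.3 and Python 3.11.15.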

Additional observations from a re-analysis of the deposited data

How the results depend on the processing

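Members called between the lines in females numbered 2 in the fit as reported. They numbered 4 by likelihood ratio test, by limma voom, with GeTMM and with the replicate block, 0 with library size alone, 13 with no filter, 1 with a floor of 10 counts per library, 10 without both CSB replicate 1 libraries and 11 with each sex fitted on its own. In males the count of 1 became 2 by likelihood ratio test and with the replicate block, 4 with GeTMM, 7 with no filter, and 0 with a floor of 10 counts per library or each sex on its own. Averaged over the sexes the count of 3 became 7 by likelihood ratio test and with GeTMM, 6 by limma voom and with the replicate block, 14 with no filter, 1 with a floor of 10 counts per library and 8 without both CSB replicate 1 libraries. The interaction count of 0 became 2 with GeTMM, 4 with no filter and 3 without both CSB replicate 1 libraries. For male against female in Obp56h-/- flies, 38 became 68 by limma voom, 19 with library size alone, 61 with no filter and 59 without both CSB replicate 1 libraries. In CSB flies, 32 became 21 by limma voom, 14 with library size alone, 58 with no filter and 7 without both CSB replicate 1 libraries. Calls over all genes moved as well. Between the lines in females 140 became 288 by likelihood ratio test, 131 by limma voom, 91 with library size alone and 416 with no filter. With no filter, 68 became 279 in males, 261 became 959 averaged over the sexes and 5 became 70 for the interaction. For male against female, 432 in Obp56h-/- flies became 1162 by limma voom, 373 with library size alone and 627 with no filter. In CSB flies 393 became 214, 321 and 594 in the same order. The cause was not tested in any of these.

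Leaving out each library in turn gave 0 to 20 calls in females, 1 to 40 in males, 3 to 37 averaged and 0 to 23 for the interaction. Calls over all genes moved widely between these fits too, but not always in the same direction as those of the members. It gave 41 to 94 calls for male against female averaged over the lines, 21 to 66 in Obp56h-/- flies and 3 to 72 in CSB flies. For male against female, calls over all genes moved between these fits as well. The highest member counts in males, in the average, in the interaction and in CSB flies came without CSB male replicate 2. Averaged over the lines, every other alternative gave 47 to 83 calls, all of them lower in males. Without CSB male replicate 2, 1 of the 94 was higher. A sum of 40 or more as criterion moved no count by over 1.5 times. Neither did 40 or more counts in each sex, an alternative chosen after seeing the data. Keeping only members with no exon overlap left the same genes, so it could not move any count. Of the 141 calls of members over the 7 comparisons, 0 changed sign under any alternative run. Called values lie far from 0 and the alternatives refit the same counts, so this says little. Of all 938 member values over the 7 comparisons, 396 changed sign under some alternative. Between the lines these were 70 of 134 in females and 88 of 134 in males. Of the members higher in males without passing, snoRNA:Psi28S-1153, snoRNA:Psi18S-1389b and scaRNA:PsiU5-44 stood at -0.031, -0.24 and -0.072 without both CSB replicate 1 libraries. Leaving out each library in turn gave -0.16 to 0.82 for snoRNA:Psi28S-1153, -0.36 to 0.37 for snoRNA:Psi18S-1389b, -0.10 to 0.32 for scaRNA:PsiU5-44 and -0.15 to 0.42 for snoRNA:lola-d. With the replicate block, male against female gave 74 calls averaged, 45 in Obp56h-/- and 39 in CSB flies. The labels do not say whether replicate numbers pair the libraries. Deviations between replicates correlated between -0.10 and 0.07 over all genes, except 0.46 between CSB females and CSB males. Whether the CSB libraries shared a batch by replicate number was not tested.

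Groups of 2 limit what the genotype comparisons can show, and members near the sum of 80 rest on few counts per library. Short guides are thinly covered, so an absent call among Me guides says little about them.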
